A study of Mus musculus with 504 samples.

Results

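The genes described here are 32 members of the glycolytic pathway and of the transcriptional response to low oxygen, out of 55450 genes in the deposited count table. They were listed by gene name and known role, with earlier results of these data known, and all 32 were found by their identifiers. The list held 17 genes of glucose uptake and glycolysis, 13 targets of the hypoxia-inducible factors (HIF) and the 2 factor subunits Hif1a and Epas1. RNA came from pools of 5 cells sorted from mouse mammary tumours and sequenced as full-length cDNA. Every animal carried MMTV-PyMT, which drives the polyoma middle T oncogene in mammary epithelium, together with MMTV-Flpo and the reporter RC::FrePe. In 5 animals the third driver was Tnc-CreERT2 (the Tnc line, animals named TENA) and in the other 5 it was Cdh2-CreERT2 (the Cdh2 line, animals named Cdh). RC::FrePe gives mCherry in cells that have seen Flp and switches to GFP once Cre has also acted, so GFP records past activity of the Tnc or Cdh2 promoter while tamoxifen was present. Tamoxifen, 2 mg given 2 times a week, started at week 9 and went on until the animals were killed at 13 to 14 weeks. No group without tamoxifen or without the oncogene was analysed here.

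Cells were sorted by reporter and by the epithelial adhesion protein EpCAM. In the Tnc line the populations were P18 (mCherry high, EpCAM high, 5 animals), P17 (mCherry positive, EpCAM high, 3 animals), P22 (both reporters, EpCAM high, 5 animals), P09 (GFP high, EpCAM intermediate, 5 animals), P16 (GFP positive, EpCAM intermediate, 4 animals), P10 (GFP positive, EpCAM low, 4 animals), P15 (GFP positive, EpCAM negative, 3 animals) and P05 (mCherry positive, EpCAM negative, 5 animals). The sample labels and the series text place the P09 gate differently, and the sample labels are followed here. The Cdh2 line gave P18 from 5 animals, P15 from 3 and P05 from 1. Libraries of each population were summed within an animal, which gave 43 sums, and levels are CPM, the counts of a gene per 1000000 counts of a sum on the trimmed-mean (TMM) scale.

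Glycolysis splits glucose into pyruvate in the cytosol, and lactate dehydrogenase then turns pyruvate into lactate that leaves the cell through monocarboxylate transporters. Under low oxygen the prolyl hydroxylases that mark HIF alpha subunits for degradation slow down. HIF alpha with its partner ARNT then binds DNA at a short core, ACGTG or GCGTG, and raises transcription of glucose transporters, glycolytic enzymes, angiogenic signals and enzymes of collagen maturation. Because HIF alpha is controlled mainly through protein stability, the RNA levels given here do not measure its activity. Fast-growing mammary tumours often hold poorly perfused regions in which these genes are high.

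The promoters of the 2 groups are described here by the core that HIF binds, with no test between the groups. For members only the promoter nearest the annotated gene start was used, while the background holds every promoter. Of 32851 RefSeq promoters (assembly GRCm38.p6), 38.6% held ACGTG or GCGTG on either strand in the 250 bases before the start. The share was 11 of 17 glycolysis genes (64.7%) and 9 of 11 hypoxia targets with an entry (81.8%). For ACGTG alone the shares were 16.6% of all promoters, 35.3% of the glycolysis genes and 63.6% of the hypoxia targets. ACGTG and its reverse complement overlap in the palindrome CACGTG, where both strands were counted. The 60-base stretches below belong to the members that the results turn on, are given 5′ to 3′ on the strand of the gene, and carry the core or its reverse complement in capitals. They lie at chr6:82774475-82774534 on the minus strand (Hk2), and on the plus strand at chr7:46845742-46845801 (Ldha), chr10:59323236-59323295 (P4ha1), chr11:54100827-54100886 (P4ha2), chr12:73907769-73907828 (Hif1a) and chr17:24470332-24470391 (Pgp). None of these stretches overlaps an annotated exon.
Hk2: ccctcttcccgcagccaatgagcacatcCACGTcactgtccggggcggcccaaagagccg
Ldha: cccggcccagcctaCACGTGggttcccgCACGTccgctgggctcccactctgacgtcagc
P4ha1: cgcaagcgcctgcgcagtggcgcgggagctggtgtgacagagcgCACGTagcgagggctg
P4ha2: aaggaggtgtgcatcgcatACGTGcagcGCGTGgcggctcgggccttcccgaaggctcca
Hif1a: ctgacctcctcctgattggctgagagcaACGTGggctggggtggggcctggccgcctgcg
Pgp: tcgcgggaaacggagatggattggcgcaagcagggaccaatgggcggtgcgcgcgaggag
The Ldha stretch holds the palindrome CACGTG and a further CACGT, while no core stands in the 250 bases before the start of Pgp. A match of letters is a description of the sequence and says nothing of binding in these cells.

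Of 487 wells with cells, 335 libraries passed the submitters' quality flag, with 313655 to 27849014 counts each. The median library of Tnc-line P18 detected 14140 genes, against 7587 in P05, 7327 in P15 and 11619 in Cdh2-line P15. Markers placed the EpCAM-high populations with epithelium: the summed level of 8 epithelial markers in Tnc-line P18 ranged from 9465 to 22490 CPM. The 7 leukocyte markers summed to 31.56 to 85.59 CPM there and reached 10 CPM together in 53 of 55 pools, and Ptprc, the pan-leukocyte gene, was the one of them at 0. All 12 Tnc-line P15 pools carried Ptprc at 10 CPM or more, and their summed leukocyte markers ranged from 1791 to 5958 CPM. Epithelial markers summed to 29.38 to 231.1 CPM there, with Cdh1, Cldn4 and Cldn7 at 0. Fibroblast markers summed to 0.6513 to 600.9 CPM and the 3 basal markers (Krt14, Krt5 and Acta2) to 2.911 to 1531 CPM. Tnc-line P05 was mixed between pools, with Col1a1 in 16 of 32 pools and Ptprc in 7 of 32. Cdh2-line P15 had no pool with Ptprc, and its leukocyte markers summed to 47.32 to 69.29 CPM. Its fibroblast markers summed to 0.1326 to 33.28 CPM, its epithelial markers to 90.59 to 199.3 CPM and its basal markers to 549.7 to 710.5 CPM. The same gate therefore differed between the 2 lines in leukocyte markers. It also differed in the 7 macrophage markers, at 1321 to 9556 CPM in the Tnc line and 6.256 to 19.36 CPM in the Cdh2 line. The ranges of the epithelial, fibroblast and basal sums overlapped, but their medians lay apart. Tnc-line medians were 37.29, 348.3 and 16.22 CPM, in that order, and Cdh2-line medians 193.3, 1.434 and 655.5 CPM. The epithelial markers together reached 10 CPM in 4 of 12 Tnc-line pools and 15 of 16 Cdh2-line pools. P15 of animal TENA2524 rested on 1 library of 508631 counts, and P18 of animal Cdh1624 on 2 libraries with 879259 counts. In sums over sorted cells, fewer cells of a type and less RNA per cell cannot be told apart. The labels tie each sum to an animal. Within a line the animal was a block, so p-values measure the spread left after population and animal are fitted, estimated over the 43 sums of both lines. Between lines there was no block, and p-values measure the spread between animals.

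In Tnc-line P18, the EpCAM-high cells with mCherry alone, most glycolytic transcripts were abundant. Per kilobase of exon, the highest mean level was that of aldolase A (Aldoa), at 571 CPM per kb, followed by lactate dehydrogenase A (Ldha) at 276, triosephosphate isomerase (Tpi1) at 146 and the glucose transporter Slc2a1 at 128. Slc2a1, which brings glucose into the cell, stood at 403, 389, 553, 190 and 705 CPM in animals TENA2462, TENA2483, TENA2517, TENA2524 and TENA2560. Ldha stood at 562, 979, 969, 1148 and 909.9 CPM in the same order. Among the hypoxia targets, Ndrg1, a stress-response gene induced by hypoxia, was at 242 ± 64.4 CPM (SD, n = 5) and Ankrd37 at 1.38 ± 0.62 CPM. Carbonic anhydrase 9 (Car9), a membrane enzyme much used as a hypoxia marker, was at 32.1 ± 16.6 CPM and Vegfa, the angiogenic factor, at 6.36 ± 4.06 CPM. Hif1a was at 50.1 ± 10.3 CPM and Epas1, which encodes HIF-2 alpha, at 2.94 ± 0.84 CPM. Per kilobase, Epas1 was lower than Hif1a by 4.04 ± 0.54 log2 units (SD, n = 5).

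**Figure D1:**
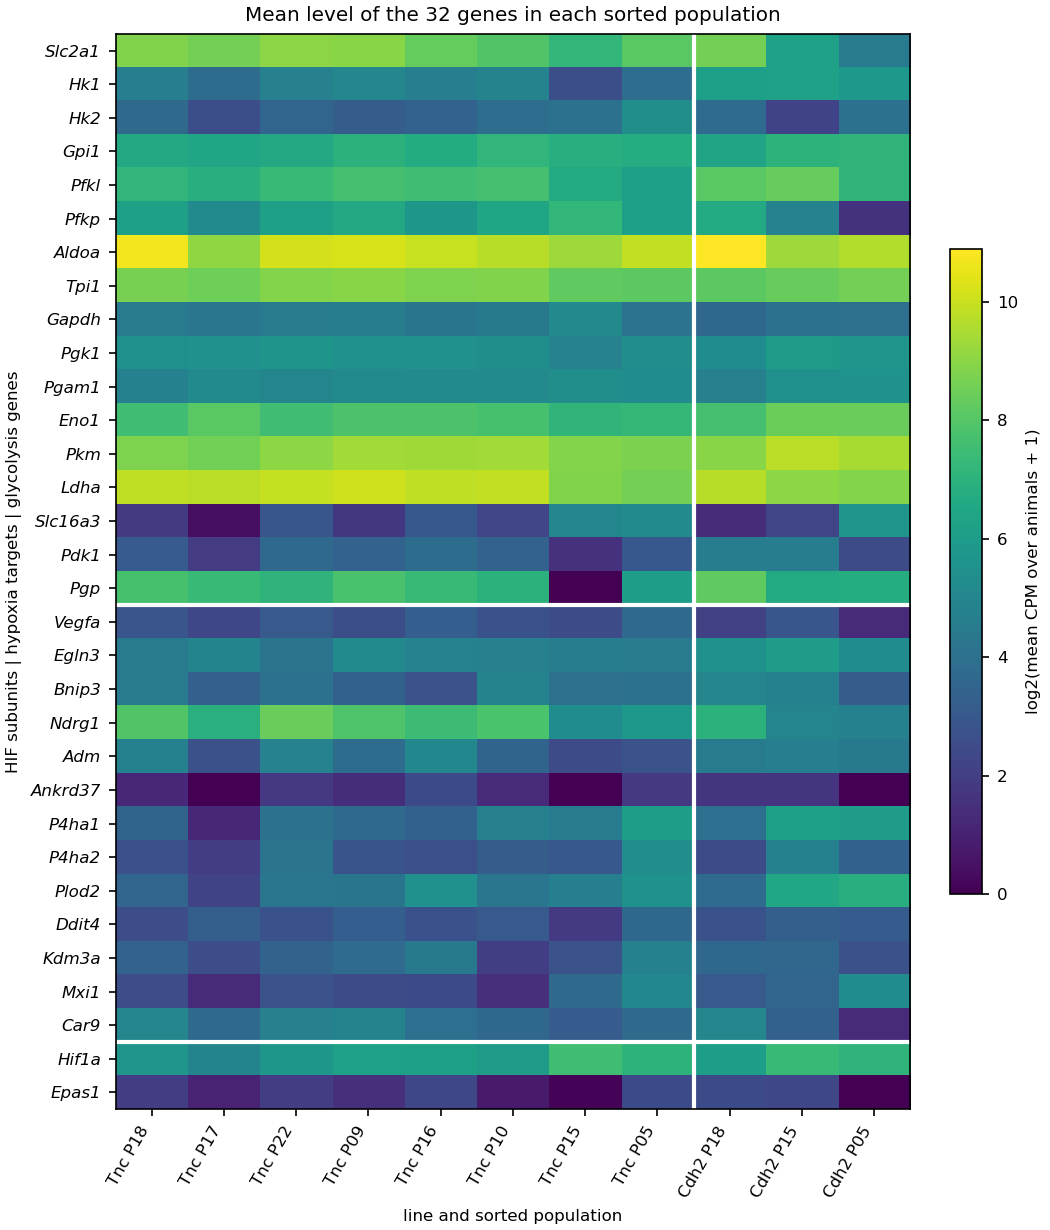
Mean level of each of the 32 genes (rows, grouped by role) in the 11 populations (columns), as log2 of the mean CPM over animals plus 1. The row of Pgp is near 0 in Tnc-line P15 and filled in every other population, and the rows of P4ha1, P4ha2 and Plod2 are brighter in the EpCAM-negative P05 of the Tnc line and P15 of the Cdh2 line than in P18.

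The other members are given by the range of their mean CPM over the 11 populations. Among enzymes of the glycolytic trunk, Gpi1, which isomerises glucose 6-phosphate, lay between 82.3 and 144, Pgk1, the first ATP-yielding kinase of the pathway, between 27.3 and 60.4, and Pgam1, the mutase after it, between 25.9 and 47.0. Tpi1 lay between 281 and 490, Eno1, an enolase, between 137 and 350, and Pkm, which encodes pyruvate kinase, between 383 and 876. Aldoa ranged from 533 in P17 to 1898 in Cdh2-line P18. The phosphofructokinase genes, at the committed step, ranged from 70.6 to 324 for Pfkl and from 2.06 to 148 for Pfkp. Pdk1 lay between 1.90 in Tnc-line P15 and 22.8 in Cdh2-line P18. Among the hypoxia targets, Egln3, a prolyl hydroxylase acting on HIF, lay between 17.0 and 62.0, Ddit4, an inhibitor of mTORC1, between 2.63 and 11.7, and Kdm3a, a histone demethylase, between 3.02 and 26.4. Mxi1, an antagonist of MYC, lay between 1.5 in P17 and 37.6 in Cdh2-line P05, and Epas1 stayed at 4.51 or less in all populations.

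Some members share sequence with other loci, which limits their counts. Only 46.2% of 51-base windows in the exons of Pgk1 were unique to it in the genome's transcripts, against 53.4% for Bnip3, 63.9% for Pgam1, 74.1% for Eno1, 74.6% for Pkm and 75.0% for Gapdh, which shared windows with 211 pseudogenes. Gapdh, a textbook abundant transcript, stood at 21.2 ± 4.45 CPM in P18, and its level and those of the others named are uncertain. The symbol Aldoa belongs to 2 identifiers. Pgp was unique in 100.0% of windows and overlapped no other gene.

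The first comparisons asked whether the genes change as cells of the Tnc line switch on GFP and lower EpCAM. Against P18, none of the 32 genes was called at an adjusted p under 0.05 in P22, P09, P16 or P10 by edgeR's quasi-likelihood test with Benjamini-Hochberg adjustment over 33768 genes, and none had an unadjusted p under 0.05. Over all genes, 716, 851, 2064 and 2779 of 33768 had one in these 4 populations, in that order. DESeq2 also called none of them in these comparisons, and limma with equal weight per library called none in P22, P09 or P16. edgeR called 0% of all genes in P22, 0% in P09, 0.00296% in P16 and 0.00296% in P10. The background of DESeq2 was higher, at 2.39%, 2.44%, 4.84% and 6.53% in the same order, and that of limma was 0.00296% in P22, 0% in P09 and 0.862% in P16. In P10, limma called 2 members, Car9 (log2 change of -2.93) and Pgp (-4.08), where it called 7.54% of all genes. Of those 2545 genes, 2318 were lower.

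Within P22, the double-positive cells, the members lay close to P18. The median log2 change was 0.11 for the glycolysis genes and 0.21 for the hypoxia targets, against -0.01 for all genes, and 23 of 32 members lay above 0. Ndrg1 in P22 was 458, 443.9, 383, 174 and 246 CPM, and in P18 it was 305, 241, 296, 146 and 219 CPM, in the same order of animals. It was higher in P22 in 5 of 5 animals, by 0.50 ± 1.00 (fitted log2 change ± SE, adjusted p = 1.0), and the ranges overlapped. P4ha2, a subunit of the prolyl 4-hydroxylase that stabilises collagen, was at 17.3 ± 9.42 CPM in P22 against 5.26 ± 2.69 in P18 (log2 change 1.69 ± 1.49, adjusted p = 1.0). Pgp had the opposite sign, with lower values in P22 in 5 of 5 animals (log2 change -0.83 ± 0.78, adjusted p = 1.0).

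In the EpCAM-intermediate cells the members scattered to both sides. In P09 the largest change was that of Bnip3, a mitophagy receptor, at 9.49 ± 6.27 CPM against 21.3 ± 8.75 in P18 (log2 change -1.19 ± 1.03), lower in 5 of 5 animals. In P16 Bnip3 was at 5.99 ± 3.5 CPM (-1.72 ± 1.14) and did not overlap P18. Plod2, a lysyl hydroxylase that prepares collagen for cross-linking, was higher in P16 in 4 of 4 animals, at 44.9 ± 31.7 CPM against 10.8 ± 3.77 (log2 change 2.01 ± 1.35). Its highest P16 value, 89.6 CPM, came from the single library of TENA2483, without which the mean was 30.1 ± 13.6 CPM (n = 3). Car9 was at 14.6 ± 17.8 CPM in P16, with a log2 change of -2.66 ± 2.05. None of these passed the test. How many of all genes had groups without overlap was not counted, in this comparison or in those below.

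In P10, the EpCAM-low cells, pools are set side by side by whether they carried epithelial transcripts, with no test and no share over all genes. Pgp reached 10 CPM in 12 of 18 P10 pools with the keratin gene Krt8 and in 0 of 7 pools without it, which allows up to 42.86%. Slc2a1 did so in 14 of 18 pools with Krt8 against 1 of 7 without, and Ndrg1 in 15 of 18 against 0 of 7. Other members were found in both kinds of pool, Ldha in 17 of 18 and 6 of 7, Eno1 in 18 of 18 and 6 of 7, Hk1 in 8 of 18 and 2 of 7, and Hk2 in 3 of 18 and 2 of 7. Ptprc was present in 4 of the 25 P10 pools, and Pgp reached 10 CPM in 0 of those 4, which allows up to 75%, and in 12 of the other 21. Summed per animal, leukocyte markers in P10 ranged from 2.87 to 4698 CPM and epithelial markers from 66.7 to 19410 CPM, and the 4 animals had 60.2, 116, 0 and 336 CPM of Pgp. The limits given for 0 pools cover counting error only, take pools of 4 animals as independent and are rough for so few pools. The part of cell mixture in the P10 values was not tested.

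P17, which like P18 carries mCherry and high EpCAM without GFP, had lower values for most members. Against P18, 27 of 32 members lay below 0, with medians of -0.45 for the glycolysis genes and -1.60 for the hypoxia targets, where the median of all genes was -0.40. The hypoxia median was -0.50 without TENA2524 and -2.69 without TENA2560, and the glycolysis median was -0.20 without TENA2524, so their size rests on single animals. P4ha1, the other catalytic prolyl 4-hydroxylase subunit, was at 4.07, 0 and 0.0843 CPM in the 3 animals with P17, all below the 8.5 to 12.9 CPM of P18 (log2 change -4.09 ± 1.58). Aldoa was at 335, 593 and 672 CPM in P17 and at 854, 2012, 1536, 1557 and 2355 CPM in P18, with no overlap (log2 change -1.82 ± 0.63, adjusted p = 0.905). edgeR called 0 members and 0% of all genes here, with 3 members (Aldoa, Ankrd37 and P4ha1) at an unadjusted p under 0.05, all lower. Over all genes, 1695 of 33768 stood at such a p. DESeq2 called the same 3 members, where it called 5.31% of all genes, and limma called 0 members. Of the 1794 genes that DESeq2 called, 1525 were lower. Ankrd37, an ankyrin-repeat gene induced by HIF, had no count in P17, which puts its log2 change against P18 at -4.66 or lower when 3 counts are allowed over the group.

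The largest difference that edgeR fitted among the members was in Pgp, which encodes phosphoglycolate phosphatase, an enzyme that removes side products of glycolysis such as glycerol 3-phosphate and 2-phosphoglycolate. In Tnc-line P18 it stood at 99.2, 233, 197, 299.7 and 235 CPM (TENA2462, TENA2483, TENA2517, TENA2524 and TENA2560). In P15 it was at 0.0347 CPM (1 count) in TENA2483 and at 0 in TENA2517 and TENA2524, where 3 counts would be 0.195 and 4.82 CPM. The ranges did not overlap, and P15 held 1 count in total against 74906 in P18. The ratio of those counts was -13.21 on the log2 scale, with an exact 95% counting interval of -18.51 to -10.73. Pgp fell by 13.03 ± 1.77 on the log2 scale in the fit (adjusted p = 0.000248, edgeR's quasi-likelihood test). It was the only member called in this comparison, in which 0.729% of all genes were called.

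**Figure D2:**
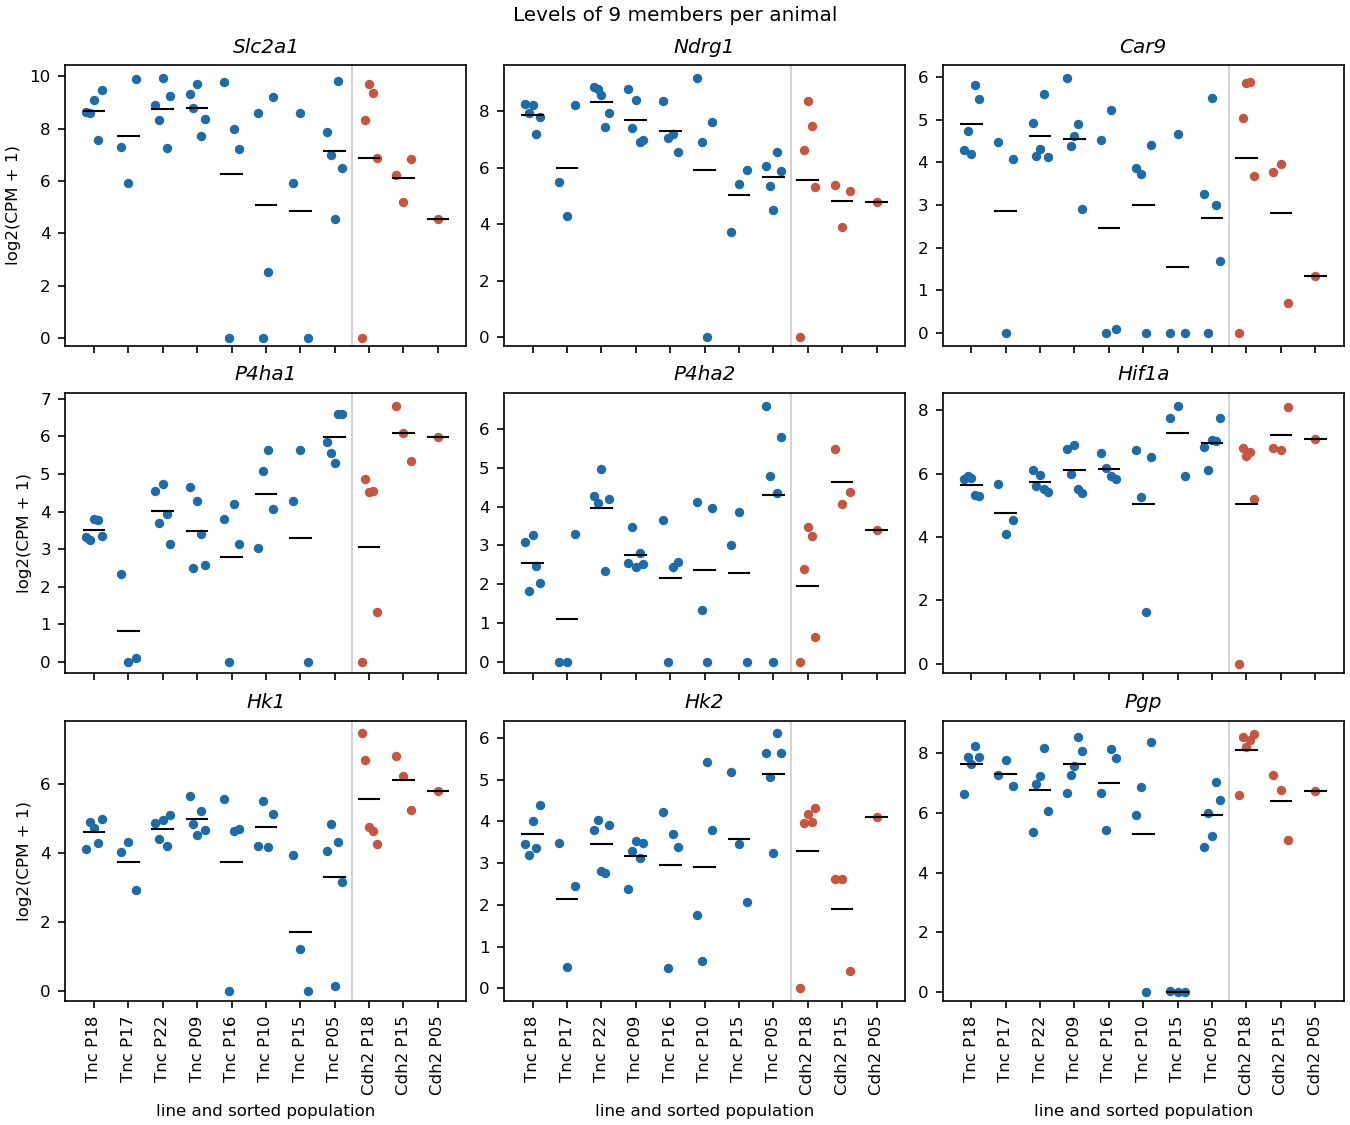
Level of 9 members in each animal (points, log2 of CPM plus 1) by population, with the Tnc line in blue and the Cdh2 line in red; a bar marks the mean of the log values. Pgp lies at or near 0 in all 3 Tnc-line P15 animals, while the 3 Cdh2-line P15 animals lie between 33.2 and 155 CPM, and P4ha1 in P05 lies above P18 in every animal.

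The single pools are the libraries that make up the sums, so their counts describe Pgp by pool and are no separate support. Pgp reached 10 CPM in 54 of 55 P18 pools, in 14 of 32 P05 pools and in 0 of 12 P15 pools. The 0 follows from the 1 count of Pgp in all P15 libraries. It allows a share of up to 25% for counting error only, with pools of 3 animals taken as independent. In P05, the other EpCAM-negative population of the line, Pgp stood at 28.2, 63.3, 36.5, 130 and 86.2 CPM. Pgp was lower in P15 than in P05 as well, by a fitted log2 change of -11.29 ± 1.70 (adjusted p = 0.00257, edgeR), and was the only member called there, where 0.136% of all genes were called. The counts behind it were 1 against 7013, a log2 ratio of -11.36 (95% counting interval -16.66 to -8.88). Without all populations of animal TENA2524, whose P15 is 1 library, the P15 against P05 change was -11.24 with an adjusted p of 0.0948 (edgeR), and the call was lost. It held without libraries under 1000000 counts, which leaves out that P15 library (-11.22, adjusted p = 0.0155, edgeR). It also held with at least 3 libraries per sum, which leaves out the same P15 sum (-11.33, adjusted p = 0.00558, edgeR). The 2 populations fitted alone gave -11.18 with an adjusted p of 0.976. Against P18 the call held without each animal in turn, with changes from -16.18 to -12.42. Every Tnc-line P15 pool carried Ptprc, no level of Pgp in P15 pools without leukocyte markers could be had, and their part in this result was not tested.

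Apart from Pgp, the glycolysis genes of P15 were uneven between its 3 animals and near the bulk of the transcriptome. Their median log2 change against P18 was -0.39, that of the hypoxia targets -0.40 and that of all genes -0.61. With the DESeq2-style (RLE) scaling the 3 medians became 0.42, 0.72 and -0.18, and without TENA2524 the glycolysis median was 0.05, so neither group has a direction here that holds under both scalings. The scaling also moved the share of higher calls over all genes from 27.2% of 246 to 50.2%. Hif1a was higher in P15 in 3 of 3 animals, at 218, 282 and 59.4 CPM against 38.5 to 60.1 CPM in P18 (log2 change 1.92 ± 0.86, adjusted p = 0.281). Its lowest P15 value, from the single library of TENA2524, lay inside the P18 range. Slc2a1 stood at 59.2, 388 and 0 CPM in P15, and the first hexokinase gene Hk1 at 14.3, 1.30 and 0 CPM against 16.5 to 30.9 CPM in P18 (log2 change -2.54 ± 1.28, adjusted p = 0.343).

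Other models gave more calls in P15, over a wider background. DESeq2 called 4 members, with Hif1a higher (2.54, adjusted p = 0.00472), Gapdh higher (1.39, adjusted p = 0.0164) and Pgp and Ankrd37 lower, where it called 14.6% of all genes. limma with equal weight per library called Slc2a1 (-5.51), Car9 (-3.90), Hk1 (-3.37) and Pgp (-7.43) lower, where it called 13.9%. Of the 4706 genes limma called, 3889 were lower. The 4 of 32 members are close to both backgrounds. Ankrd37 had no count in P15, a log2 change of -4.32 or lower with 3 counts allowed, and Epas1 had 3 counts, a log2 ratio of -5.40 (95% counting interval -7.68 to -3.85).

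In Tnc-line P05, mCherry-positive cells without EpCAM, glycolysis genes lay mostly below P18 while several collagen-modifying hypoxia targets lay above it. No member was called by edgeR, where 0.545% of all genes were called. At an unadjusted p under 0.05 stood P4ha1, higher, and Aldoa, Ldha, Pgp and Adm, lower. These 5 of 32 members are a share close to that of all genes, 4477 of 33768. P4ha1 stood at 56.9, 46.4, 38.2, 95.6 and 94.7 CPM in P05 and at 9.09, 8.5, 12.9, 12.7 and 9.16 CPM in P18. The groups did not overlap and the change had the same sign in 5 of 5 animals (log2 2.85 ± 1.15, adjusted p = 0.258). Ldha went the other way, from 562, 979, 969, 1148 and 909.9 CPM in P18 to 191, 413, 275, 548 and 524 CPM in P05, again without overlap (log2 change -1.23 ± 0.53, adjusted p = 0.296). Ldha passed the test once libraries under 1000000 counts were left out (-1.34 ± 0.33, adjusted p = 0.0375) or sums of fewer than 3 libraries were (-1.26 ± 0.32, adjusted p = 0.0373), by edgeR in both. The share of all genes called rose as well in those fits, from 0.545% to 1.61% and 1.9%.

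Ndrg1, like Ldha, did not overlap between P05 and P18, and edgeR did not call it. It was at 66.2, 40.0, 21.7, 92.9 and 58.2 CPM in P05, below the lowest P18 value of 146 CPM in every animal (log2 change -2.11 ± 1.05, adjusted p = 0.388). In P15 it was at 12.1, 42.0 and 59.4 CPM, also without overlap with P18 (-2.37 ± 1.31, adjusted p = 0.396). Hif1a in P05 was at 114, 68.8, 133, 130 and 218 CPM, above the highest P18 value of 60.1 CPM in every animal. It was not called by edgeR and had no unadjusted p under 0.05. The second hexokinase gene Hk2 was higher in 4 of 5 animals, at 48.6, 32.2, 8.43, 68.0 and 48.9 CPM against 10.1, 8.23, 15.1, 9.28 and 20.0 CPM (log2 change 1.92 ± 1.09). The lactate exporter Slc16a3 ranged over 0, 33.2, 7.39, 128 and 5.88 CPM in P05. Adrenomedullin (Adm), a vasodilator peptide gene, was below 0.08 CPM in 4 of the 5 animals and at 29.0 CPM in the fifth.

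By DESeq2, 6 members were called in P05: Slc16a3 (4.41), P4ha1 (3.46, adjusted p = 0.00128), Mxi1 (2.89), Hk2 (2.57) and Hif1a (1.99) higher and Adm (-4.79) lower, where 14.5% of all genes were called. With equal weight per library, limma called 12 members, all lower, where 18.2% of all genes were called. Of the 6131 genes it called, 5330 were lower as well. Among the 12 members were Ndrg1 (-5.11, adjusted p = 0.0056), Slc2a1 (-4.81), Pgp (-4.37), Car9 (-3.35), Ldha (-2.56) and Aldoa (-2.44). The 2 models shared only Adm, which both gave as lower.

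**Figure D3:**
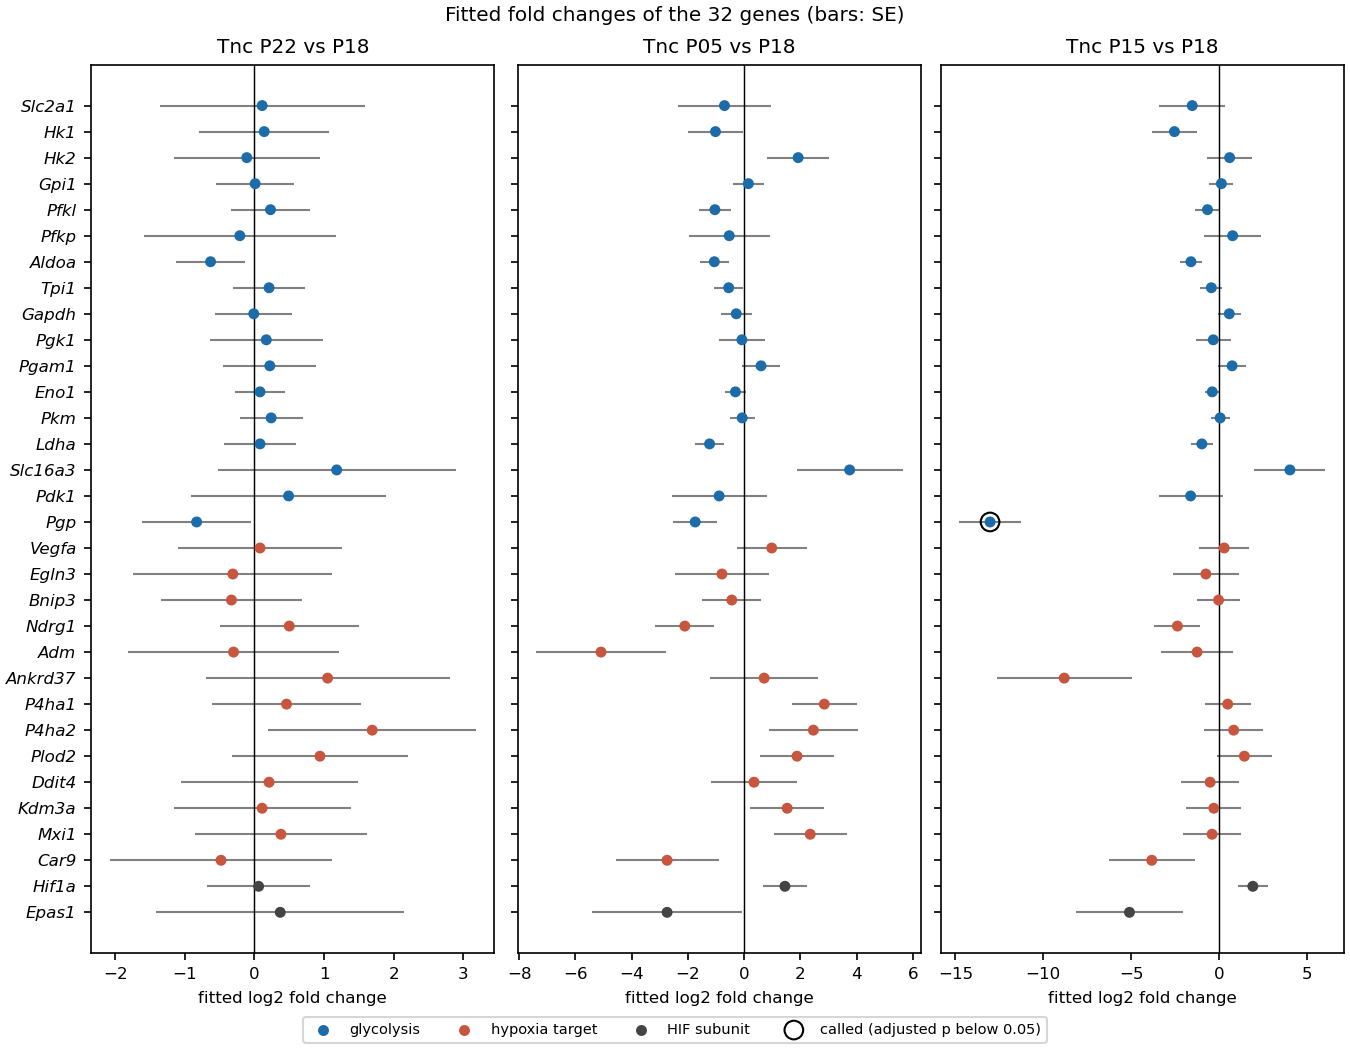
Fitted log2 change of each member against Tnc-line P18 in P22, P05 and P15, with the standard error as a bar and called genes circled. The scale of the x axis differs between the panels. Changes in P22 stay within 1.69 of 0, P4ha1 is at 2.85 in P05, and Pgp in P15 is the one circled point, at -13.03.

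Pools of P05 are set side by side here by whether they carried fibroblast or leukocyte transcripts, as counts with no test. P4ha2 reached 10 CPM in 10 of 16 P05 pools with the collagen gene Col1a1 and in 0 of 16 without it, a 0 that allows up to 18.75%. Plod2 did so in 10 of 16 pools with Col1a1 against 4 of 16 without, P4ha1 in 11 of 16 against 7 of 16, and Ndrg1 in 9 of 16 against 2 of 16. For Hif1a the numbers were 13 of 16 and 9 of 16, and for Ldha 14 of 16 and 13 of 16. In the 7 P05 pools with Ptprc, neither P4ha2 nor Plod2 reached 10 CPM, which allows up to 42.86%, and they did so in 10 and 14 of the other 25. Per animal, fibroblast markers in P05 summed to 11.2 to 15670 CPM and leukocyte markers to 6.61 to 3569 CPM. P4ha2 was at 96.4, 26.5, 0, 19.5 and 54.6 CPM and Plod2 at 31.5, 32.8, 0.57, 34.0 and 138 CPM in P05, with TENA2517 lowest for both. The limits given for 0 pools cover counting error only, take pools of 5 animals as independent and are rough for few pools. The part of cell mixture in these P05 values was not tested.

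Set against each other in P05, the 17 glycolysis genes had a median log2 change of -0.53, with 4 above 0 and 13 below, and the 13 hypoxia targets one of 0.71, with 8 above and 5 below. The median of all genes was -0.15. The hypoxia median was not stable: it was -0.02 without the libraries carrying Ptprc, 0.01 without animal TENA2524, -0.36 by limma and -0.83 when the 2 populations were fitted alone. The glycolysis median stayed below 0 under every alternative run, from -1.91 to -0.01, the latter with RLE scaling, under which the median of all genes was 0.17 and that of the hypoxia targets 1.14. For P15 against P05, the hypoxia median was -0.86, with 10 of 13 below 0, and the glycolysis median -0.01, where the median of all genes was -0.58. Over the alternatives run, the first ranged from -1.93 (without TENA2517) to -0.23, and the second from -0.40 to 0.42 with 6 changes of sign. Ankrd37 stood at an unadjusted p under 0.05 there, as did 3468 of 33768 genes. It had no count in P15, a log2 change of -5.41 or lower with 3 counts allowed. DESeq2 called Pgp and Ankrd37 in that comparison, where it called 13% of all genes, and limma called no member.

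Averaged within a sum on the log2(CPM + 1) scale, glycolysis genes lay above hypoxia targets in all populations, by an amount that varied widely between animals in some. In P18 the glycolysis mean was 6.41 ± 0.15 and the hypoxia mean 3.67 ± 0.18 (SD, n = 5 animals), a difference of 2.75 ± 0.24. In P22 the difference was 2.56 ± 0.16 (n = 5), in P09 2.89 ± 0.1 (n = 5), in P16 2.73 ± 0.44 (n = 4) and in P10 3.01 ± 0.86 (n = 4). In P15 it was 2.72 ± 1.28 (n = 3), from 1.27 to 3.67, and in P05 2.44 ± 0.63 (n = 5), from 1.84 to 3.41. The widest mean difference was in P17, at 3.5 ± 1.02 (n = 3), and the narrowest in Cdh2-line P15, at 2.19 ± 0.21 (n = 3). These means compare levels of genes of unequal length and are read only between populations.

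**Figure D4:**
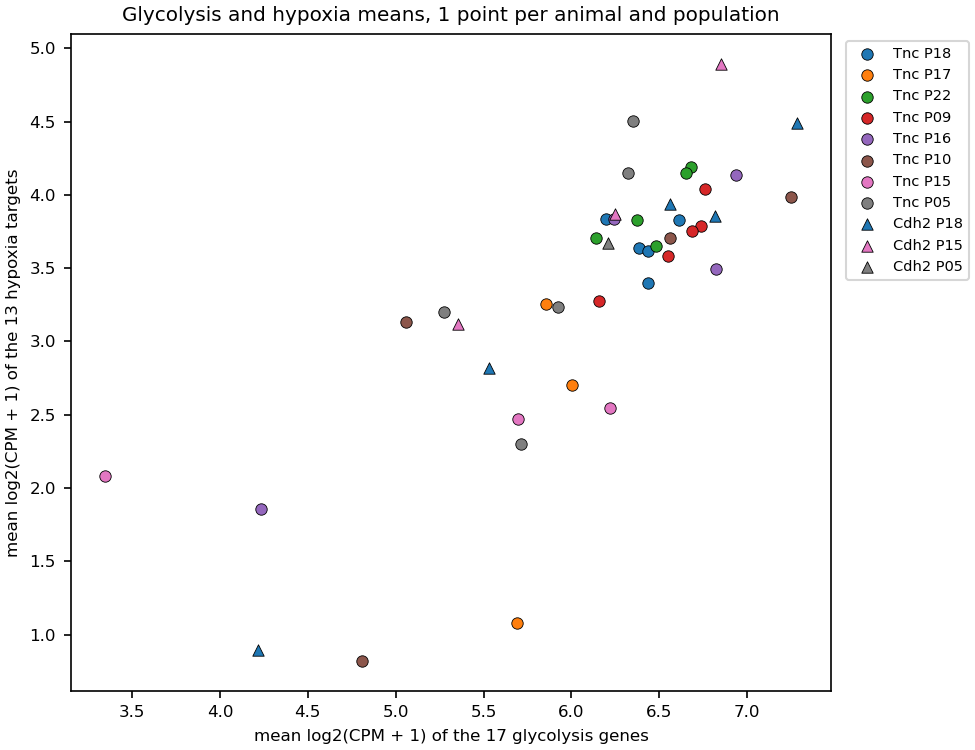
Mean log2(CPM + 1) of the 17 glycolysis genes (x axis) against that of the 13 hypoxia targets (y axis), with 1 point per animal and population. The 5 Tnc-line P18 points lie close together at 6.20 to 6.61 and 3.40 to 3.84, while points of P05, P15, P10 and P17 spread widely.

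The Cdh2 line allowed the same contrast of EpCAM-negative GFP-positive cells with P18 in a second driver. No member was called in P15 against P18, edgeR called 0% of all genes, and no member had an unadjusted p under 0.05. Over all genes, 1215 of 33768 had one. Of the 32 members, 17 lay above 0, and the 3 with the largest fitted changes above 0 were Plod2, P4ha2 and P4ha1. P4ha1 stood at 111, 66.6 and 39.9 CPM in P15 (Cdh1624, Cdh1654 and Cdh1739) and at 0, 28.3, 21.7, 22.4 and 1.53 CPM in P18 (Cdh1624, Cdh1654, Cdh1725, Cdh1739 and Cdh1803), without overlap (log2 change 2.55 ± 1.74). Plod2 stood at 112, 77.8 and 80.0 CPM against 0 to 29.6 CPM (3.09 ± 2.00), and P4ha2 at 44.0, 15.9 and 19.7 CPM against 0 to 10.2 CPM (2.99 ± 2.30). P4ha1 and Plod2 each reached 10 CPM in 14 of 16 P15 pools. These pools carried little fibroblast transcript, with a marker sum of 33.28 CPM at most per animal. Of the 7 leukocyte markers, Ptprc, Laptm5, Tyrobp and Cd52 were at 0. Together the 7 summed to 47.32 to 69.29 CPM per animal and reached 10 CPM in 11 of 16 pools.

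DESeq2 called Hif1a (2.40, adjusted p = 0.0390) higher and Ankrd37 (-6.43, adjusted p = 0.0403) lower in Cdh2-line P15, where it called 5.58% of all genes. limma called P4ha1 (3.38, adjusted p = 0.0232), where it called 4.2%. The medians were -0.17 for the glycolysis genes and 0.24 for the hypoxia targets, against 0.0 for all genes. Both rest on single animals: without Cdh1739 they were 1.16 and 2.34, without Cdh1654 they were 0.53 and 1.92, and without Cdh1624 they were -0.39 and 0.01. In the 1 Cdh2-line animal with P05, P4ha1 was at 62.6 CPM, Plod2 at 112 CPM and Pgp at 105 CPM.

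Pgp was the member whose step from P18 to P15 differed between the lines. In Cdh2-line P15 it stood at 155, 109 and 33.2 CPM, and at 96.3, 374, 298, 345 and 404 CPM in P18, and it reached 10 CPM in 13 of 16 P15 pools. The difference of the 2 lines in that step was 11.49 ± 1.98 log2 units (adjusted p = 0.0321, edgeR's quasi-likelihood test on the interaction), where 0.00888% of all genes were called. Compared directly in P15, Pgp was higher in the Cdh2 line by 12.05 ± 1.87 (adjusted p = 0.119), with 14957 counts against 1. That log2 ratio of counts was 12.19 (95% counting interval 9.71 to 17.49). edgeR called 0% of all genes in this direct comparison, with 2 of the 30 members tested (Hk1 and Pgp) at an unadjusted p under 0.05. Over all genes, 1485 of 14028 stood at such a p. DESeq2 called Pgp (10.96), where it called 9.49% of all genes, and so did limma (5.70, adjusted p = 0.0491), where it called 2.13%. Of the genes called, 1245 of 1331 by DESeq2 and 294 of 299 by limma were higher in the Cdh2 line. Hk1 was at 113, 75.5 and 37.3 CPM in Cdh2-line P15, above the 14.3, 1.30 and 0 CPM of the Tnc line without overlap (log2 3.78 ± 1.58, adjusted p = 0.432).

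All Cdh2-line libraries ran on lane 2, with those of TENA2524, and the other 4 Tnc-line animals on lane 1. In P15 the only Tnc-line library of lane 2 is the single one of TENA2524, so line and lane cannot be told apart there. Against it alone the fitted Pgp difference was 15.04 log2 units. In P18, where every pool of both lines carried Krt8, edgeR called 0% of all genes and no member, and 1 member, Hk1, had an unadjusted p under 0.05. Over all genes, 430 of 17878 had one. DESeq2 and limma called no member there, where they called 0.0168% and 0% of all genes. Hk1 was higher in the Cdh2 line (log2 1.55 ± 0.70), as was Pdk1 (1.56 ± 0.77), both with an adjusted p near 1.0 (edgeR). Pdk1 encodes a kinase that inhibits pyruvate dehydrogenase. Without lane 1, TENA2524 is the only Tnc-line animal left in P18, so a fit there cannot separate line from lane. Animal Cdh1624, whose P18 is 2 shallow libraries, had 0 counts of Slc2a1, Hif1a, Ndrg1 and P4ha1 in P18, where 3 counts would be 1.35 CPM.

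The balance of the hexokinase forms is given by population, with no test. Hk1 is the widely expressed form, and Hk2 is the form induced by growth signals and HIF. Per kilobase, Hk2 lay below Hk1 by a log2 ratio of -0.47 ± 0.48 in Tnc-line P18 (SD, n = 5), with all 5 animals below 0. In P05 the ratio was 2.09 ± 1.01, from 0.72 to 3.15, in the 4 animals with more than 3 counts of both genes, a limit set after seeing the data. With TENA2517, where Hk1 had 1 count, it was 3.07 ± 2.36. In Tnc-line P15 it was 1.81 and 3.46 in the 2 sums with both genes, and in the 1 Cdh2-line P05 sum it was -1.25. In Cdh2-line P15 it was -4.52 ± 1.55 (n = 3), between -6.27 and -3.35. In P05 of the Tnc line and P15 of the Cdh2 line the ratio therefore lay on opposite sides of P18, without overlap with it in the first and, against -2.33 to 0.57 in the 4 P18 sums with counts of both genes, in the second. The ratio of Pfkp to Pfkl, the platelet and liver forms of phosphofructokinase, was -1.96 ± 0.68 in Tnc-line P18 and ranged from -3.74 to 2.45 in P05. P4ha1 lay above P4ha2 by 1.73 ± 0.65 in P18 and by 1.38 ± 1.25 in the 4 P05 sums with both.

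Correlations between members from pool to pool are described for P18. Centred on each animal, the median correlation between pairs of glycolysis genes over the 55 Tnc-line P18 pools was 0.26, between hypoxia targets 0.06 and between the groups 0.13. The closest pair was Aldoa and Ldha at 0.74. The mean levels of both groups correlated at 0.54, and each correlated with the number of genes detected in the pool, at 0.47 and 0.49. In Cdh2-line P18 the medians were 0.21 between glycolysis genes, 0.12 between hypoxia targets and 0.09 between the groups. The groups' means there correlated at 0.33 over 50 P18 pools, with 0.53 and 0.55 for genes detected, and the closest pair was Eno1 and Tpi1 at 0.88. In P22 the groups' means correlated at -0.03. These correlations describe pools that share library depth and capture, and no test was made of them.

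Further genes of both pathways, listed by name, were mostly uncalled by edgeR. Of 28 further glycolysis and pyruvate genes, 2 were called lower in P15 than in P18 and none higher, where 0.729% of all genes were called. Aldoc, the brain-type aldolase, was at 2.82 ± 4.88 CPM (n = 3) against 304 ± 127 CPM (n = 5), a log2 change of -7.17 ± 1.76 (adjusted p = 0.0477). Pdhb, a subunit of pyruvate dehydrogenase, was at 11.9 ± 2.32 against 101 ± 21.2 CPM (-2.96 ± 0.46, adjusted p = 0.00141). Of 39 further hypoxia genes tested, only Lox was called, the lysyl oxidase that cross-links collagen, in P15 and in P05 (0.545% of all genes called). Lox had 0 counts in Tnc-line P18, 7832 in P05 (63.3 ± 65.1 CPM, n = 5) and 1615 in P15 (19.5 ± 29.2 CPM, n = 3). Against 3 counts allowed over P18, it was at least 12.92 log2 units higher in P05 (adjusted p = 0.0277) and at least 12.05 higher in P15 (adjusted p = 0.0329). None of these further genes was called in the other comparisons.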

How the data were processed

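The deposited table holds read counts per gene, made by the authors with STAR, SAMtools and featureCounts (Subread) on mm10, per the submitters' processing notes; the sources used here give no versions, strand setting or multimapping rule. Libraries with the passed-quality flag (335, 313655 to 27849014 counts) were summed per animal and population (43 sums). Sums were fitted with edgeR 4.0.16 (R 4.3.3): TMM scaling, filterByExpr, robust quasi-likelihood test and animal as a block, with 33768 genes. P18 and P15 were compared between lines in fits of 17878 and 14028 genes without a block. Standard errors are the fitted log2 change divided by the root of F. Calls are Benjamini-Hochberg adjusted p under 0.05. TMM factors ran from 0.5696 to 2.528. DESeq2 1.42.0 and limma 3.58.1 were alternatives. For limma, log2(CPM + 1) was averaged over the libraries of each sum, and these means were fitted. Scripts were tested on simulated data.

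Members and lists were chosen with earlier results of these data known. Named genes are all members by role, up to 10 of the largest changes per comparison, and called genes of the further lists; members named because their groups did not overlap, or moved alike in every animal, were chosen after their values were seen. Populations are paired by animal through the labels: deviations of sums of 1 animal correlated at a median of 0.07, against -0.01 between animals (Tnc line). 4 analyses were added after seeing the data: leaving out libraries under 1000000 counts, the difference between lines in the P15 step, isoform ratios from sums with more than 3 counts of both genes, and Plod2 in P16 without its sum of 1 library. Promoter sequences are from RefSeq (GRCm38.p6) and matched 29 of 32 members. Intervals and floors cover counting error only, since reads carry no molecular identifiers.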

Additional observations from a re-analysis of the deposited data

Results flagged for a closer look

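In groups of 4 or 5 animals, 11 of the 98 groups tested, over 14 measures, held a sample far from the others on the log2(CPM + 1) scale, and chance flags about 1 in 20. The 2-library P18 sum of Cdh1624 accounted for 5 of them: Slc2a1 at 0 (the others 6.90 to 9.70), Hk2 at 0 (3.96 to 4.32), Hif1a at 0 (5.19 to 6.82), Ldha at 7.10 (9.50 to 10.38) and Pgp at 6.60 (8.22 to 8.66). In Tnc-line P05, Aldoa stood at 11.33 in TENA2517, whose sum has 3 libraries, against 8.92 to 9.23 in the others. Adm stood at 4.91 in P05 of TENA2560 against 0 to 0.11, and at 6.30 in P18 of TENA2517 against 3.54 to 4.04. In Tnc-line P10, Ldha stood at 11.17 in TENA2524 against 8.86 to 9.20, Ankrd37 at 2.76 in TENA2524 against 0 in each of the others, and Car9 at 0 in TENA2517 against 3.73 to 4.40.

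The step of Pgp from P18 to P15 differed between the lines by 11.49 log2 units in the test of that difference. Among the 17 wells without cells, which had up to 256675 counts, 1 held 4363 counts of Ldha out of 4398 in all of them. The 32 members together had 5027 counts in these wells.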

How the results depend on the processing

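The number of members called was within 1.5 times the reported one in 198 of 215 recomputations, most of which report 0 calls where nearly no gene was called, and so say nothing of stability. By DESeq2 the numbers were 4 in Tnc-line P15 against P18, 6 in P05, 3 in P17, 2 in P15 against P05, 2 in Cdh2-line P15 and 1 between lines in P15. By limma with equal weight per library they were 2 in P10, 4 in P15, 12 in P05 and 0 in P15 against P05. They were 1 in Cdh2-line P15 and 1 between lines in P15. In P05, 1 member was called without libraries under 1000000 counts and 1 with at least 3 libraries per sum. In P15 against P05, 0 were called with the 2 populations alone, and leaving out each animal gave 0 to 1. With no filter on low counts, 1 was called between lines in P15. The cause of these changes was not tested. Without the replicate block, which pairs populations by animal, the number of calls was 1 in P15 against P18, 1 in P15 against P05 and 0 in the other comparisons, and the Pgp change was -13.15 (adjusted p = 7.98e-05) and -11.52 (adjusted p = 0.000625), by edgeR. Leaving out libraries with Ptprc left no Tnc-line P15 sum, so those comparisons have no such value. Depth limits Tnc-line P15, where 1 of 3 sums holds 508631 counts, and P10, whose median library has 3171174 counts.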
